A study of Homo sapiens with 24 samples.

Results

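The response of D425 cells 1 day into OTX2 silencing was measured as the 24 h against the 0 h arrays of the cells labelled shOTX2. D425 is an established human medulloblastoma line, a tumour of the cerebellum. The members were chosen by label: 6 arrays of the 24 in the series, 3 at 0 h and 3 at 24 h, where each 24 h array was paired with the 0 h array of its own time course. Both groups carry a doxycycline-inducible short hairpin RNA (shRNA) against OTX2 and differ in time since doxycycline was added. The labels call the 3 courses separate experiments and do not say whether the cells were 1 clone, which part of the transcript the hairpin targets or what the control cells carry. The control course gave 1 array at 0 h and 1 at 24 h, and serves as the background. Wherever 3 values follow each other below, they are those of courses 1, 2 and 3.

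OTX2 is a homeobox transcription factor that patterns the forebrain and midbrain of the embryo. In the retina it acts with its relative CRX to switch on the genes of photoreceptors, and it is highly expressed in medulloblastomas of group 3 and group 4, which also carry photoreceptor transcripts. A short hairpin lowers a protein by having its messenger RNA cut or its translation blocked, so transcripts of direct and indirect targets change after it.

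Total RNA was hybridised to Affymetrix U133 Plus 2.0 arrays, and the values are MAS5 signals, the array software's summary of the probes of a probe set in arbitrary units. On the 8 arrays used here the median signal was 16.3 to 19 and the highest signal 9563 to 12935. The ratio of 3' to 5' actin probes, which reads RNA quality and labelling, was 1.46 and 1.51 in course 1, 2.36 and 1.98 in course 2 and 1.89 and 1.87 in course 3 at 0 and 24 h, against 1.39 and 1.34 in the control. No read depth exists for arrays, so their number sets the precision. Changes are differences of log2(signal + 16), where the 16 damps the dimmest genes, and 13903 genes with a probe set above the array median in at least 3 of the 24 arrays were tested with limma. A gene is called, and said to rise or fall, when the p adjusted by Benjamini-Hochberg across the 13903 genes is under 0.05.

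The targeted gene was examined first. OTX2 read 4417, 4839 and 4719.5 at 0 h and 3787, 4292 and 4077 at 24 h. Each 24 h array was below the 0 h array of its course, and the groups did not overlap. The change was -0.20 (SE 0.06, adjusted p = 0.0247), and the call was lost without the course block (adjusted p = 0.224) and without course 1, 2 or 3 (adjusted p = 0.172, 0.0987 and 0.113). A second OTX2 probe set averaged 3027 at 0 h and 2804 at 24 h. The control course read 4964 at 0 h and 5194 at 24 h. Since the place of the hairpin and of the probes on the transcript is not given, these probe sets do not check the labels.

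The line was set against its expected markers. Besides OTX2, the transcription factor gene MYC read 5169, 5317 and 4582 at 0 h and 4340.2, 3912 and 4617 at 24 h, and its change of -0.23 (adjusted p = 0.141) was not called, except after quantile normalization of the arrays (adjusted p = 0.0436). IMPG2, a matrix protein of photoreceptors, read 2762, 2475 and 2189.6 at 0 h and 2424, 1722 and 2503 at 24 h and was not called. The photoreceptor transcription factor gene NRL read 254, 402 and 159.7 at 0 h and 241, 94 and 157 at 24 h, a change of -0.67 that missed the threshold (adjusted p = 0.0582) and was largest in course 2. NRL was called without course 3 (adjusted p = 0.0347), with a filter at a signal of 50 (adjusted p = 0.0492) and with its probe sets averaged (adjusted p = 0.0401). CRX, the OTX relative that drives photoreceptor genes, read 172, 119 and 138 at 0 h and 322, 246 and 441 at 24 h. It rose by 1.13 (SE 0.15, adjusted p = 3.17e-05), with no overlap between the times. Control CRX read 124 at 0 h and 168 at 24 h. The neuronal RNA-binding protein gene ELAVL4, another marker, was near the background at both times, with signals of 2.4 to 16 in the 6 arrays. OTX1, a further family member, read 7.3 to 18.8 and was not called.

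By 24 h, 2129 genes were called, which is 15.3% of those tested. The 1090 genes that rose make up 7.84% and the 1039 that fell 7.47% of all tested genes. With the arrays centred on their medians, 881 were called higher and 1103 lower. Most changes were modest: the median change was 0.54 among genes that rose and -0.49 among those that fell, and 189 called genes (1.36%) changed at least 2-fold, 123 upward and 66 downward. Of the 2129 called genes, 2086 had the same sign in all 3 courses, a count not given here for all tested genes. In 1616 of the 2129 the 3 arrays at 24 h did not overlap the 3 at 0 h, against 2917 (21%) of all 13903 tested genes. Both counts follow largely from the call, which was made on the same arrays. Course 3 moved least. The genes that rose had a median change of 0.59 in course 1, 0.59 in course 2 and 0.43 in course 3. Without the course block 855 genes were called, all of them also called with it. Leaving out course 1, 2 or 3 gave 996, 896 and 1823 called genes.

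The largest rise was that of USP18, a protease that removes the ubiquitin-like modifier ISG15 and dampens interferon signalling. It read 46.5, 27.5 and 104 at 0 h and 1113, 777 and 543 at 24 h, and so rose in each course while the groups stayed far apart. STC1, a secreted glycoprotein hormone, read 204, 244 and 456 at 0 h and 1644, 2018 and 1566 at 24 h, a gain of at least 3-fold in every course. SUSD2, a membrane protein with a sushi domain, read 347, 128 and 427 at 0 h and 2688, 1485 and 1494 at 24 h. PPP1R17, an inhibitor of protein phosphatases known from Purkinje cells, read 49, 54.7 and 133.4 at 0 h and 616, 466 and 419.9 at 24 h. Course 3 started highest at 0 h and ended lowest at 24 h for PPP1R17. POM121L9P, a transcribed pseudogene whose probes may also read related copies, read 46.9, 132.9 and 333 at 0 h and 610.5, 846 and 927 at 24 h. The fold between its lowest and highest course was larger at 0 h than at 24 h.

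MFAP4, a protein of elastic microfibrils, read 21.6, 1.7 and 19.5 at 0 h and 254, 93.2 and 100.5 at 24 h, a log2 change of 2.39 (SE 0.28, adjusted p = 6.72e-06). TNNC1, troponin C of slow and cardiac muscle, read 83, 72 and 118 at 0 h and 559.5, 520 and 487 at 24 h, a log2 change of 2.35 (SE 0.20, adjusted p = 3.72e-07). The TNNC1 arrays within each time lay close together and the groups were separated by a wide gap. GRK5, a kinase that desensitises G-protein-coupled receptors, read 106, 96.2 and 147 at 0 h and 741, 604 and 407 at 24 h, a log2 change of 2.16 (SE 0.17, adjusted p = 2.93e-07). GADD45G, a growth arrest and DNA damage gene, read 83.6, 43.3 and 72 at 0 h and 375, 268 and 243 at 24 h, a log2 change of 1.93 (SE 0.15, adjusted p = 2.93e-07). LFNG, a fringe glycosyltransferase that modifies Notch receptors, read 39.8, 51.1 and 43.4 at 0 h and 233, 178 and 220.4 at 24 h, a log2 change of 1.89 (SE 0.22, adjusted p = 7.05e-06). DLC1, a GTPase-activating protein, read 99.1, 75.7 and 139 at 0 h and 354 to 471 at 24 h, a log2 change of 1.87 (SE 0.16, adjusted p = 4.62e-07). Of 3 kept DLC1 probe sets 1, a dim one, had the opposite sign (-0.21). The remaining large rises were those of LINC02078, a long non-coding RNA (2.05), the scaffold gene CCM2L (2.01), KIAA1755 (1.86, with a second, dim probe set at -0.15) and NNMT, which methylates nicotinamide (1.86).

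Among the falls, GULP1, an adaptor for the engulfment of dying cells, read 180.3, 177 and 116 at 0 h and 24.5, 13.9 and 33.1 at 24 h. The 24 h signals were close to background, so the fall is damped by the constant of 16. TTC12, a factor for the assembly of ciliary dynein arms, read 200.2, 208 and 223 at 0 h and 30.5, 56.8 and 34.9 at 24 h. Its 0 h arrays were nearly equal, and its control course read 606 at 0 h and 430.1 at 24 h, a change of -0.48 in the same direction. TIMP3, an inhibitor of metalloproteinases, read 1761, 1226 and 545 at 0 h and 288, 291 and 239.8 at 24 h, a log2 change of -1.90 (SE 0.25, adjusted p = 2.91e-05). Its spread at 0 h was wide and its 24 h arrays lay close together. The TIMP3 control read 342 at 0 h, below all shOTX2 arrays of that time, and 348 at 24 h, above them. ADAMTS1, a secreted metalloproteinase, read 125, 137 and 51.7 at 0 h and 16.6, 9.5 and 16.1 at 24 h. RFK, the kinase that makes flavin mononucleotide from riboflavin, was a bright probe set and read 3474, 3090.5 and 2463 at 0 h and 1014, 713 and 1165 at 24 h, a log2 change of -1.64 (SE 0.16, adjusted p = 1.27e-06). ERC2, a scaffold of the active zone at synapses, read 943, 1138 and 1034 at 0 h and 254, 292 and 456 at 24 h, a log2 change of -1.63 (SE 0.20, adjusted p = 1.20e-05). GNAL, the stimulatory G protein subunit of olfactory and striatal neurons, read 58.2, 97.5 and 80 at 0 h and 1.5, 17.7 and 20.2 at 24 h, a log2 change of -1.75 (SE 0.21, adjusted p = 9.62e-06). The hexokinase-like gene HKDC1 read 410.4, 227 and 187 at 0 h and 65.8, 54.5 and 86 at 24 h, a log2 change of -1.72 (SE 0.24, adjusted p = 5.26e-05), with 1 of 4 kept probe sets at 0.13.

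CCN1, a matricellular protein induced by growth factors, read 147, 121 and 124 at 0 h and 25.5, 21.7 and 55.8 at 24 h, a log2 change of -1.60 (SE 0.18, adjusted p = 5.69e-06). ARSI, an arylsulfatase, read 247, 163 and 157 at 0 h and 55, 41.2 and 43.6 at 24 h, a log2 change of -1.69 (SE 0.19, adjusted p = 3.98e-06). The other large falls were those of SLCO4A1, an organic anion transporter, the cation channel gene TRPM3, the Golgi kinase gene GASK1B (-1.69), the hyaluronidase gene CEMIP2 (-1.59) and ARHGAP29 (-1.55), another GTPase-activating protein. All 30 of these largest changes kept their call under each of the 14 alternative settings tried, with the smallest rise at 0.86 and the smallest fall at -0.85. Their adjusted p ran from 2.93e-07 to 9.73e-05. Each setting refitted arrays that had also served to choose these genes, so the kept calls are no separate evidence.

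**Figure D1:**
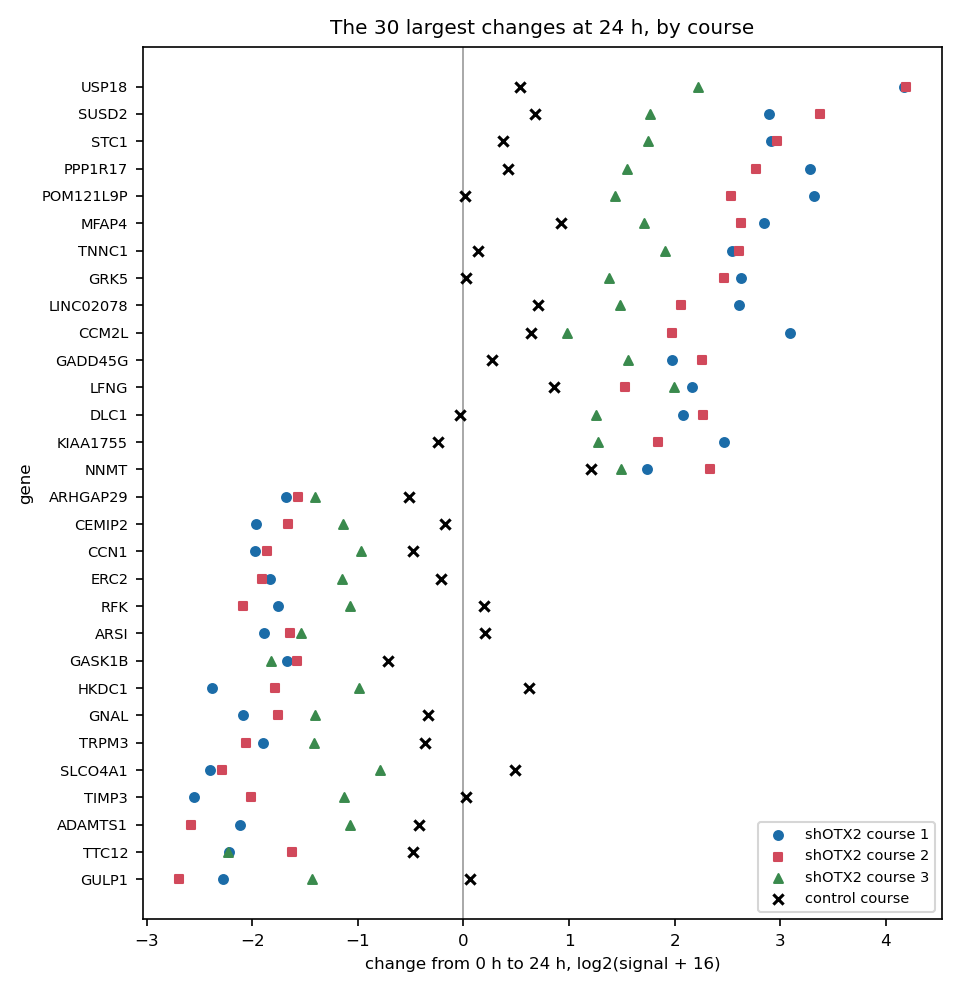
The change from 0 h to 24 h in log2(signal + 16) is plotted for the 15 largest rises and the 15 largest falls, with circles, squares and triangles for shOTX2 courses 1, 2 and 3 and crosses for the control course (1 array per time). USP18 stands highest at a mean of 3.53 and GULP1 lowest at -2.13, and the control crosses lie between -0.72 and 1.20. All 3 courses lie on the same side of 0 for each gene because this was required when the genes were chosen.

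These genes were already moving between 8 h and 16 h. The 8 h and 16 h arrays are others than those of 0 h and 24 h, though from the same courses. The change from 8 h to 16 h was upward for all 15 of the largest rises, from 0.89 to 2.10, and downward for all 15 of the largest falls, from -1.69 to -0.53. The control course moved the same way between those times for 13 of the 15 rises, with changes from -0.38 to 1.09, and for 10 of the 15 falls, with changes from -0.73 to 0.74. USP18 averaged 57.9 ± 42.1 (SD, n = 3) at 8 h and 276 ± 84.5 at 16 h, and GULP1 192 ± 86.8 and 53 ± 8.90. Over all called genes, 90.8% of those that rose by 24 h had a positive 16 h minus 8 h difference, against 51.7% of all tested genes, and 91.0% of those that fell had a negative one, against 48.3%. The mean at 48 h was beyond the 24 h mean for all 15 rises and for 13 of the 15 falls. TNNC1 then came down again, from 1000.3 ± 197 at 48 h to 151 ± 40.7 at 96 h, while DLC1 went on from 1403 ± 251 to 2316 ± 144. The control also came down for TNNC1, from 332 at 48 h to 90.6 at 96 h, and read 148 and 178 for DLC1. GNGT2, a photoreceptor gene, went from a mean of 514 ± 44.6 at 8 h to 473 ± 92.8 at 16 h, then 241 ± 57.0 at 24 h before 43.9 ± 8.77 at 48 h, so that most of its drop came after 16 h. From 48 h to 96 h, 41.2% of the genes that rose by 24 h went up further, against 46.5% of all tested genes.

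**Figure D2:**
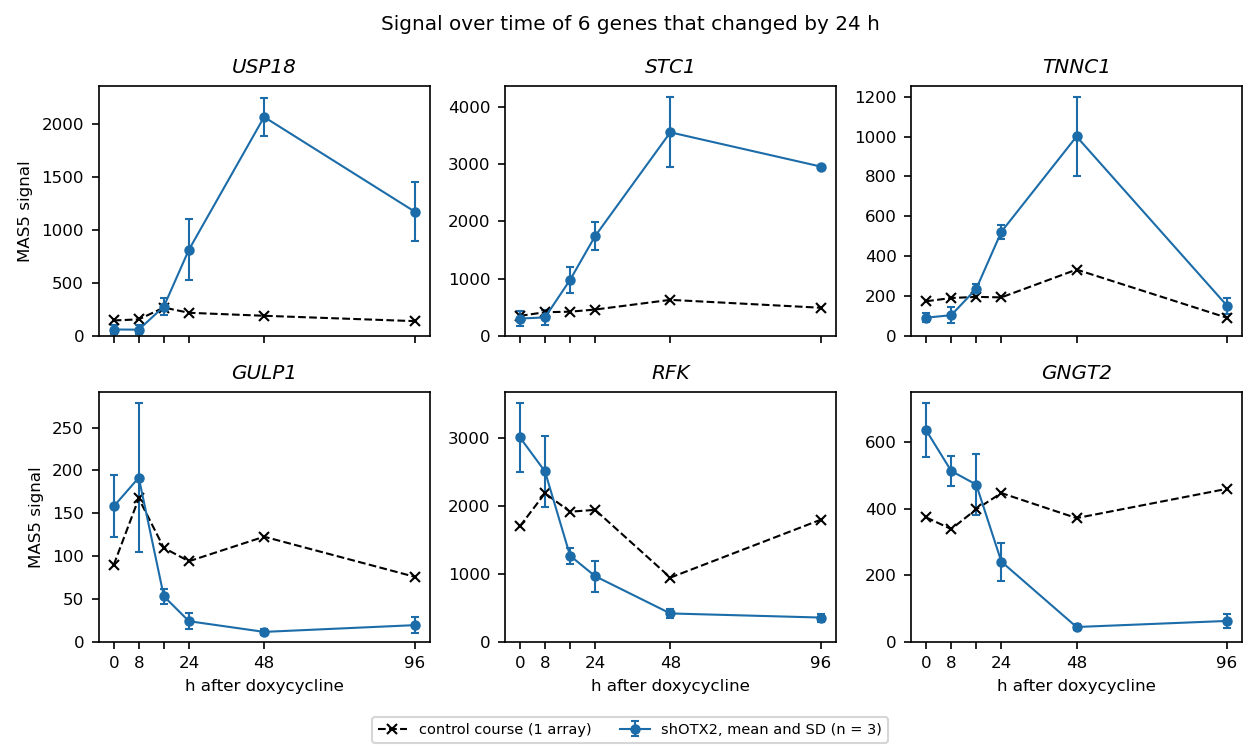
The MAS5 signal of 6 genes is plotted against hours after doxycycline, with blue circles for the mean of the 3 shOTX2 arrays, bars for 1 SD and black crosses for the single control array at each time. USP18 goes from 57.9 at 8 h to 811 at 24 h, while RFK falls from 3009 at 0 h to 964 at 24 h.

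The control course served as the background. Over all genes the SD of the change was 0.35 in the control, against 0.44, 0.46 and 0.38 in the 3 shOTX2 courses. In the control 182 genes changed at least 2-fold, against 475, 553 and 254 in courses 1, 2 and 3. The genes that rose in the shOTX2 arrays had a median control change of 0.11, and those that fell -0.09. In 295 of the 1090 genes that rose and 300 of the 1039 that fell, the control moved the same way by at least 0.5 times as much. Of the 15 largest rises 13 went up in the control as well, by 1.20 for NNMT and 0.93 for MFAP4, and of the 15 largest falls 9 went down. At 0 h the control array lay above the mean of the shOTX2 arrays for 14 of the 15 rises and below it for 12 of the 15 falls. Those 0 h shOTX2 arrays also served to choose the genes.

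The difference between the arms was tested as the shOTX2 change minus the control change. It was called for 84 genes (0.604% of those tested), of which 63 were higher (0.453%) and 21 lower (0.151%) in the shOTX2 change. At an unadjusted p under 0.05 there were 1863. With the arrays centred on their medians the split was 92 higher and 14 lower. This count depends heavily on the fit: with 1 control array per time, it fell to 0 without the course block, and leaving out course 1, 2 or 3 gave 1, 0 and 360. Among the 30 largest changes 11 were called here, namely the rises of USP18, TNNC1, STC1, GRK5, DLC1 and GADD45G and the falls of HKDC1, GULP1, ARSI, RFK and TRPM3. GRK5 had a difference of 2.13 (adjusted p = 0.0138), with a control that read 198 at 0 h and 202 at 24 h. RFK had a difference of -1.83 (adjusted p = 0.0183), and its control read 1699 at 0 h and 1941 at 24 h. At 24 h the RFK control array was above all 3 shOTX2 arrays. LRTM1, a leucine-rich repeat membrane protein, read 186, 229 and 185 at 0 h and 60.1, 45 and 85.3 at 24 h, a change of -1.47, while the control went from 167 to 271. The difference for LRTM1 was -2.12 (adjusted p = 0.0183).

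**Figure D3:**
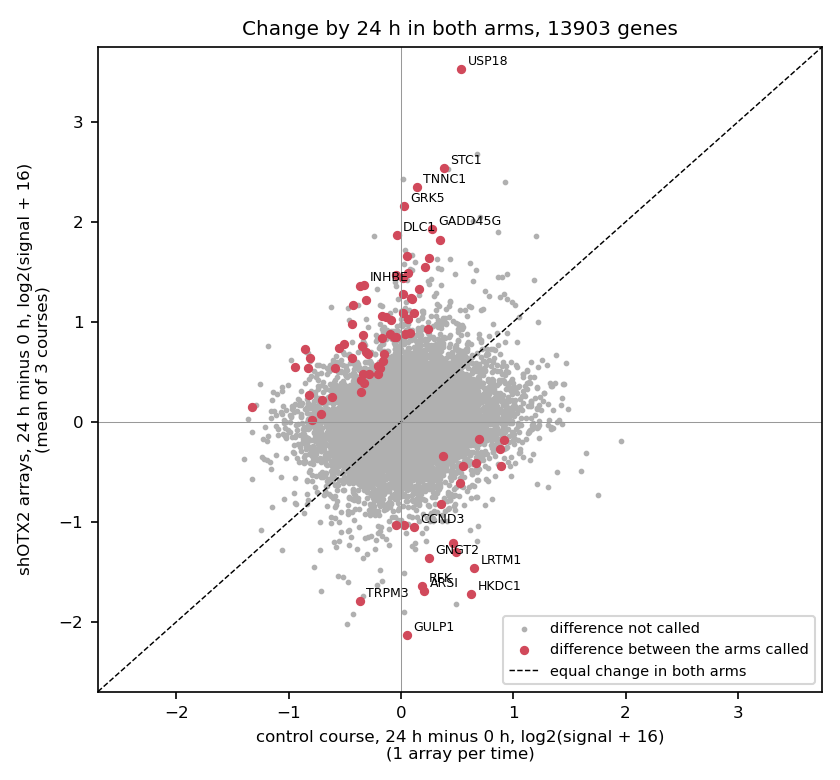
Each point is 1 of 13903 genes, with the control change (1 array per time) on the x axis and the mean shOTX2 change of 3 courses on the y axis, both as 24 h minus 0 h in log2(signal + 16). Red points mark the 84 genes whose difference between the arms was called, and the dashed line marks equal change. USP18 (0.54 against 3.53) and HKDC1 (0.62 against -1.72) lie far from it.

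Photoreceptor genes fell and none rose. These are genes of visual transduction in rods and cones, and 32 of the 46 listed passed the filter. There were 13 that fell, which is 40.6% of the tested members against 7.47% of all genes. Their median change was -0.38, against 0.01 over all genes, and the control median was 0.25, with 26 of 32 members up there. The course medians were -0.45, -0.76 and -0.10, so course 3 moved least. Without a course block 7 were called lower, and leaving out course 1, 2 or 3 left 8, 5 and 15. The 3 largest falls belonged to the cone pathway and to a regulator of transducin. GNGT2, the gamma subunit of cone transducin, read 680.1, 687 and 542 at 0 h and 208, 207 and 306 at 24 h, a log2 change of -1.36 (SE 0.17, adjusted p = 1.62e-05). Its control read 374 at 0 h and 447 at 24 h, and the difference between the arms was -1.61 (adjusted p = 0.0331). PDE6H, the inhibitory subunit of the cone phosphodiesterase, read 1261, 1543 and 1192 at 0 h and 469, 505 and 658 at 24 h, a log2 change of -1.27 (SE 0.18, adjusted p = 5.61e-05). Both genes had 3 courses down and no overlap. PDC, phosducin, which binds transducin, read 59.2, 83.2 and 54.1 at 0 h and 10.7, 12.6 and 41.3 at 24 h, a log2 change of -1.19 (SE 0.30, adjusted p = 0.00879). That call was lost without course 1 (adjusted p = 0.0684), course 2 (adjusted p = 0.112) and the block (adjusted p = 0.0566). The other members called were ABCA4, PDE6C, UNC119, GNAT2, SAG, RP1, PRPH2, TULP1, KCNV2 and GUCA1A, between -0.99 and -0.48. The arms did not start level. At 0 h the control array read below all 3 shOTX2 arrays for every called member except GNAT2, TULP1 and RP1. It read 749 for PDE6H, 36 for SAG and 2.7 for PDC, against 126, 83.8 and 124 for those exceptions. ABCA4, the retinoid transporter of the outer segment, read 124, 119 and 89.6 at 0 h and 38.7, 42.1 and 63.8 at 24 h.

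The promoters of 2 of these genes are shown because they hold TAATCC, the core to which OTX2 and CRX bind. The letters TAATCC were searched on both strands in the 250 bases before the first start site that RefSeq (GRCh38.p14) lists, and capitals mark them.

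PDE6C, chr10:93612287-93612536, plus strand: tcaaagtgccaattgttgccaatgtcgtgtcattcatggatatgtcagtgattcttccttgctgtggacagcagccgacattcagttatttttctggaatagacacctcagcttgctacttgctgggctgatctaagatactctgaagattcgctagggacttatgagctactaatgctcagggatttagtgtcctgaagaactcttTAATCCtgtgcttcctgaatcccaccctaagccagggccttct

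SAG, chr2:233307566-233307815, plus strand: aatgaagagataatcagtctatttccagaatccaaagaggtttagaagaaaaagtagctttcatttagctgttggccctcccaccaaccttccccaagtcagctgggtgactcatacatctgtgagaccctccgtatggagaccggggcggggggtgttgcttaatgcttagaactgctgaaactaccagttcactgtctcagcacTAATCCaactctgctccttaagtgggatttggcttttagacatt

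PDE6C, the catalytic subunit of the cone phosphodiesterase, read 113, 136 and 162 at 0 h and 63.6, 45 and 75.7 at 24 h, a log2 change of -0.99 (SE 0.20, adjusted p = 0.00152). SAG, rod arrestin, which ends the light response, read 79.3, 145 and 65 at 0 h and 46.3, 38.9 and 35.1 at 24 h, a log2 change of -0.94 (SE 0.24, adjusted p = 0.00946), and lost its call without course 2 (adjusted p = 0.17) and without the block (adjusted p = 0.0777). Of 11178 tested genes with a promoter in the table, 4.07% hold TAATCC in this window. Among the photoreceptor genes 6 of 24 do (25%), and 3 of the 10 called ones, the third being GUCA1A. In all genes that fell the share was 3.80% and in those that rose 3.60%. The match describes the letters only, and 3113 of the genes have further start sites that were not searched.

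Genes of DNA replication fell as well, and here the control course moved the same way. Of the 68 tested G1/S and replication genes, out of 70 listed, none rose and 25 fell (36.8%, against 7.47% of all genes). The median change was -0.32, with -0.28, -0.30 and -0.40 in the 3 courses and -0.33 in the control, where 62 of 68 members went down. With no course block 9 were called lower, and with course 1, 2 or 3 left out 13, 12 and 24. The shOTX2 change was below the control change in 32 of 68 members. GINS1, a subunit of the replicative helicase complex, read 1166, 1339.7 and 1064 at 0 h and 519, 584 and 428 at 24 h, a log2 change of -1.20 (SE 0.16, adjusted p = 4.01e-05). Its control read 1003 at 0 h and 657 at 24 h. MCM10, another replication factor, read 649, 610 and 542 at 0 h and 331, 388 and 279.7 at 24 h. Its log2 change was -0.83 (SE 0.17, adjusted p = 0.00218), with a control change of -0.58. FEN1, the flap endonuclease of lagging-strand synthesis, read 1746, 1681 and 1243 at 0 h and 1057, 925 and 666 at 24 h, and changed by -0.82 against -0.13 in the control.

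CCND3, the D-type cyclin that drives G1 with CDK4 and CDK6, read 535, 314 and 257 at 0 h and 212, 158 and 125 at 24 h, a log2 change of -1.05 (SE 0.13, adjusted p = 1.48e-05). The control read 308 at 0 h and 335 at 24 h, and of the replication list only CCND3 was called for the difference between the arms (-1.17, adjusted p = 0.0456). CCND2 had signals of 2.6 to 20.1 and was not called. The 2 probe sets of CCND1 read 0.4 to 15.5 over the 8 arrays used here and were not tested. The E-type cyclins were not called: CCNE1 changed by -0.27 (adjusted p = 0.177) and CCNE2 by -0.06 (adjusted p = 0.887). E2F1, the factor that drives S-phase genes, changed by -0.25 (adjusted p = 0.392).

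The next promoters belong to replication genes that fell and hold TTTNGCGC, a core of E2F sites, searched and capitalised in the same way.

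MCM6, chr2:135876444-135876693, minus strand: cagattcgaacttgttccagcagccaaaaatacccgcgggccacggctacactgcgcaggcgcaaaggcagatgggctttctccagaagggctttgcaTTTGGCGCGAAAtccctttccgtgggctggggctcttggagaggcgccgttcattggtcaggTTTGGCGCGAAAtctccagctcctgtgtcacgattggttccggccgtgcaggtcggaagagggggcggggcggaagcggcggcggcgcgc

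POLE2, chr14:49688215-49688464, minus strand: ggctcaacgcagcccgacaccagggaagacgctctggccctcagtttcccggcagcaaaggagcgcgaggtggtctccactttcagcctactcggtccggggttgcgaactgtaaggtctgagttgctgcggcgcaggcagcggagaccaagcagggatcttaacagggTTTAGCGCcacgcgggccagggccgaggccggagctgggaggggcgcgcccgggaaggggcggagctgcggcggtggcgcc

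The capitals in MCM6 run over matches on both strands that overlap. MCM6, part of the helicase ring, read 1627, 2119.6 and 1941 at 0 h and 1150.3, 1757 and 1429 at 24 h. Its log2 change was -0.40 (SE 0.12, adjusted p = 0.026), with overlap between the times. The MCM6 call was lost without course 1 (adjusted p = 0.129), course 2 (adjusted p = 0.0935) and the block (adjusted p = 0.347). POLE2, a subunit of the leading-strand polymerase, read 377, 468 and 412 at 0 h and 249, 377 and 273 at 24 h, a log2 change of -0.48 (SE 0.10, adjusted p = 0.00331), and lost its call without the block (adjusted p = 0.137). TTTNGCGC is in 2.33% of all promoters, in 13 of 57 (22.8%) of the replication genes and in 4 of the 20 called ones. It was in 3.80% of the promoters of all genes that fell and 2.25% of those that rose.

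Mitotic genes were called less often than replication genes, a difference that was not tested. Of 72 G2/M genes, all tested, 11 fell (15.3%, against 7.47% of all genes) and none rose. Their median change was -0.13, with -0.01, -0.06 and -0.36 in the 3 courses, against -0.45 in the control, where 66 of 72 went down. The shOTX2 change was above the control change in all but 16 members. The fit with no block called 3 lower, and leaving out course 1, 2 or 3 left 8, 5 and 8, and without course 3 another 3 were called higher. PKMYT1, a kinase that holds CDK1 inactive, read 232, 182 and 152 at 0 h and 112, 111 and 99.3 at 24 h, a log2 change of -0.71 (SE 0.11, adjusted p = 0.000174), while its control read 184 at 0 h and 204 at 24 h. CDK1, the mitotic kinase, read 2746, 2792 and 2212 at 0 h and 2014, 1971 and 1329 at 24 h. Its fall of -0.56 (adjusted p = 0.0464) lost its call without any 1 of the courses (adjusted p = 0.15, 0.0648 and 0.0573). The call was also lost without the block (adjusted p = 0.201), and the CDK1 control changed by -0.50. MKI67, the proliferation marker, changed by -0.27 (adjusted p = 0.118), and was called where the probe sets of a gene were averaged (adjusted p = 0.0416).

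Inhibitors of the cell cycle went both ways. Of 27 tested genes (31 listed) 8 rose and 3 fell (29.6% and 11.1%, against 7.84% and 7.47% of all genes), with a median of 0.17 and -0.09 in the control. With the block left out 6 higher and 1 lower were called, and without course 1, 2 or 3 in turn 5 and 3, 4 and 1, and 9 and 2. Besides GADD45G, TOB1, an antiproliferative factor, read 868, 607 and 781 at 0 h and 1682, 1209 and 1324 at 24 h, a log2 change of 0.89 (SE 0.10, adjusted p = 7.68e-06). HBP1, a repressor of cell cycle genes, read 189, 213 and 252 at 0 h and 384, 409.6 and 401 at 24 h, a log2 change of 0.83 (SE 0.12, adjusted p = 5.31e-05). Both had groups that did not overlap, and their control changes were 0.24 and -0.13. GADD45A, a relative of GADD45G, fell instead: it read 885, 810.5 and 597 at 0 h and 459, 286 and 423 at 24 h, a log2 change of -0.95 (SE 0.15, adjusted p = 0.000229). CDKN1B, the inhibitor p27, read 430.5, 439.6 and 450.4 at 0 h and 684, 616 and 543 at 24 h, and changed by 0.46 (adjusted p = 0.00331, or 0.0578 without course 1 and 0.0597 without course 2). Its control went from 508 to 380. CDKN1A, the inhibitor p21, read 98.8, 14.6 and 18.1 at 0 h and 106, 66.5 and 47.4 at 24 h. Its rise of 0.80 came from courses 2 and 3. The call was lost without course 2 (adjusted p = 0.373), course 3 (adjusted p = 0.0804) and the block (adjusted p = 0.454).

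Genes of ribosome biogenesis fell while MYC itself was not called. Of the 43 tested MYC-related and ribosome biogenesis genes (49 listed), 18 fell (41.9%, against 7.47% of all genes) and 2 rose. The median was -0.23, with -0.17, -0.36 and -0.12 by course and 0.09 in the control, and the shOTX2 change was below the control change in 38 of 43. The count is fragile: without the course block 2 fell and 1 rose, and leaving out course 1, 2 or 3 left 11, 3 and 16 falls. The changes of single genes were small. HEATR1, a factor for ribosomal RNA transcription and processing, read 945, 959.6 and 738 at 0 h and 531, 511 and 588 at 24 h, a log2 change of -0.67 (SE 0.10, adjusted p = 7.77e-05), and kept its call under all alternatives. The 2 members that rose belong to the MYC network rather than to ribosome assembly. MYCL, a MYC relative, read 38.1, 43.5 and 47.5 at 0 h and 99.8, 68 and 90 at 24 h, a log2 change of 0.78 (SE 0.14, adjusted p = 0.000555), and its control changed by 0.63. The MYC antagonist MNT changed by 0.34 (adjusted p = 0.0232). It lost its call without course 1 (adjusted p = 0.267), course 3 (adjusted p = 0.188) and the block (adjusted p = 0.131). MYCN had signals of 3.4 to 35.5 and was not called (adjusted p = 0.0836).

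**Figure D4:**
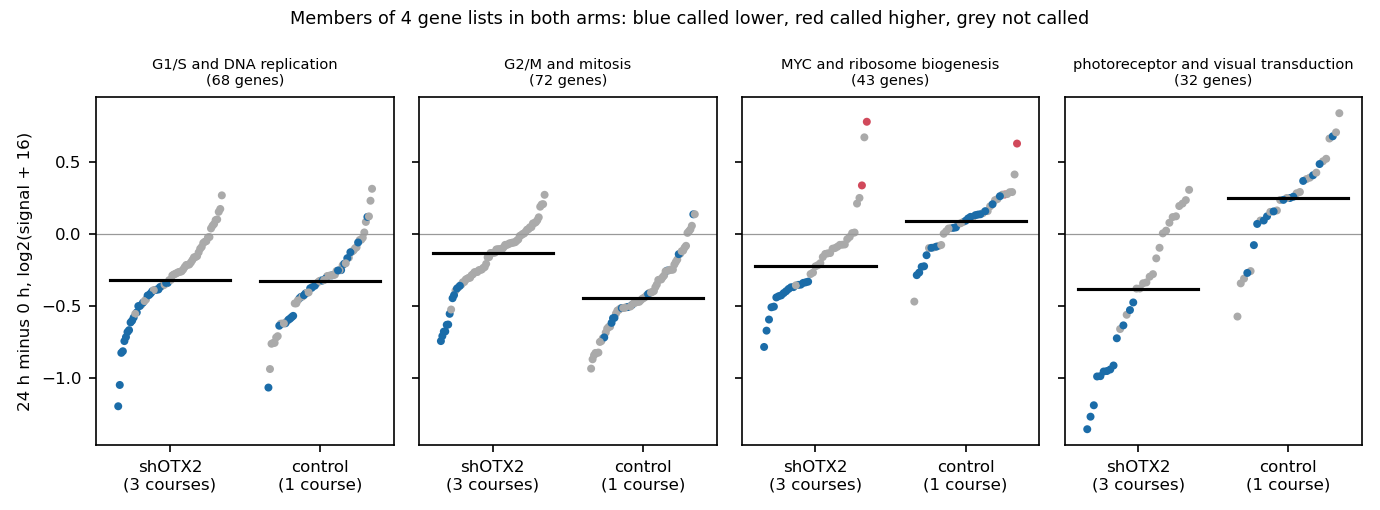
Every tested member of 4 gene lists is a point at its change from 0 h to 24 h in log2(signal + 16), for the shOTX2 arrays (mean of 3 courses) on the left of each panel and the control course (1 array per time) on the right, ordered by value, with a black bar at the median. Blue points were called lower and red points higher in the shOTX2 arrays. The medians of the replication genes are close (-0.32 and -0.33), and those of the photoreceptor genes lie on either side of 0 (-0.38 and 0.25).

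Neuronal genes showed no common direction by 24 h. Of 46 tested genes of neuronal differentiation (57 listed) 5 rose and 6 fell (10.9% and 13.0%, against 7.84% and 7.47% of all genes), with a median of 0.06 and a control median of 0.21. With no course block the counts were 3 higher and 3 lower, and with course 1, 2 or 3 left out 4 and 3, 4 and 1, and 5 and 6. SLC17A7, the vesicular glutamate transporter VGLUT1, read 287, 169.8 and 232 at 0 h and 704, 426 and 435 at 24 h, a log2 change of 1.12 (SE 0.12, adjusted p = 3.98e-06), and its control went up too, from 225 to 379.5. ELAVL2, a neuronal RNA-binding protein, read 171, 218 and 234 at 0 h and 295, 350.2 and 480.1 at 24 h, a log2 change of 0.79 (SE 0.15, adjusted p = 0.00102). The falls were those of ENO2 (-0.78), NSG1 (-0.67), NLGN1 (-0.65), DPYSL3 (-0.63), TUBB3 (-0.58) and NEFH (-0.54). Of these falls only NEFH kept its call with each course left out in turn. DCX, the microtubule protein of migrating neurons, read 0.6, 21 and 25.8 at 0 h and 11.6, 16.6 and 34.2 at 24 h and was not called (adjusted p = 0.619). Its signals were near background at both times.

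Among 35 tested progenitor and proneural factors (51 listed) 7 rose (20%, against 7.84% of all genes) and none fell, with a median of 0.14, close to the control's 0.15. Without the course block 2 rose, and leaving out course 1, 2 or 3 left 4, 5 and 4. NHLH1, a basic helix-loop-helix factor of early neurons, read 2.1, 5.7 and 9.2 at 0 h and 38, 41.8 and 39.4 at 24 h, a log2 change of 1.38 (SE 0.20, adjusted p = 5.98e-05). The control array at 0 h read 53.5, above all 3 induced arrays. ID2, which blocks basic helix-loop-helix factors from binding DNA, read 355, 180.1 and 274 at 0 h and 595, 759 and 443 at 24 h, a log2 change of 1.12 (SE 0.26, adjusted p = 0.00524). The groups did not overlap for either gene.

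In the Notch pathway 6 of 25 tested genes (32 listed) rose and 2 fell (24% and 8%, against 7.84% and 7.47% of all genes), with a median of 0.16 and 0.02 in the control. Higher and lower counts were 4 higher and 2 lower with no block and 6 and 2, 6 and 1, and 6 and 2 with course 1, 2 or 3 left out. Notch receptors are cut after binding a ligand on a neighbouring cell, and HES and HEY repressors are their usual targets. The ligands moved in opposite directions. DLL4, a dim probe set, read 25.4, 23.9 and 18.1 at 0 h and 4.1, 2.3 and 3.6 at 24 h, a log2 change of -0.99 (SE 0.18, adjusted p = 0.000897). DLL3, a divergent ligand, read 44.8, 39.1 and 44.2 at 0 h and at least 66.6 in each 24 h array. Its log2 change was 0.89 (SE 0.16, adjusted p = 0.000786), though it was not called without the block (adjusted p = 0.0984). The DLL3 control went up too, from 86.2 to 129.7. Of the receptors, NOTCH1 read 92.4, 70.3 and 74.9 at 0 h and 224, 156 and 125 at 24 h, a log2 change of 0.92 (SE 0.16, adjusted p = 0.000454), though not without the block (adjusted p = 0.0565). NOTCH2 changed by -0.39 (adjusted p = 0.00343, or 0.157 without course 2), and its 4 kept probe sets differed in sign. Of the modifiers, LFNG rose as given above. HES6, an unusual member of the HES family that promotes neuronal differentiation, read 1639.7, 1396 and 1793 at 0 h and 4507, 3716 and 3203 at 24 h, a log2 change of 1.23 (SE 0.15, adjusted p = 1.15e-05). The HES6 control read 2150.4 at 0 h and 2114 at 24 h.

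The TGF-beta and BMP pathway also moved in both directions, with 7 of 35 tested genes (43 listed) higher and 6 lower (20% and 17.1%, against 7.84% and 7.47% of all genes), a median of 0.07 and -0.16 in the control. The fit with no block gave 4 higher and 4 lower, and leaving out course 1, 2 or 3 gave 5 and 4, 5 and 5, and 8 and 4. Of the ligands, INHBE, the inhibin beta E chain, read 441, 674 and 1050.4 at 0 h and 1462, 1647 and 2347 at 24 h, a log2 change of 1.37 (SE 0.18, adjusted p = 2.23e-05). Its control went from 1799 to 1425. The INHBE change less the control change was 1.70 (adjusted p = 0.0299). LTBP1, which holds latent TGF-beta in the matrix, read 216, 142 and 132 at 0 h and 78.9, 73.2 and 70.2 at 24 h, a log2 change of -0.96 (SE 0.17, adjusted p = 0.000451). The co-receptor gene TGFBR3 read 406, 401 and 401 at 0 h and 239.7, 209.8 and 272 at 24 h, a log2 change of -0.72 (SE 0.11, adjusted p = 0.000106). The inhibitors went both ways. SMAD6 read 134, 97 and 139.7 at 0 h and 239, 258 and 186 at 24 h, a log2 change of 0.81 (SE 0.15, adjusted p = 0.00106). SMAD7, a dim probe set, changed by 0.78 (adjusted p = 0.0256), a call lost without course 1 or 2 (adjusted p = 0.162 and 0.155) and without the block (adjusted p = 0.0909). BAMBI, a decoy receptor, read 169, 109 and 109 at 0 h and 86.3, 72.8 and 61.6 at 24 h, a log2 change of -0.68 (SE 0.13, adjusted p = 0.00131). TGFBI, a matrix protein induced by TGF-beta, read 26.3, 23 and 21.5 at 0 h and 2, 3.2 and 2.9 at 24 h, a log2 change of -1.08 (SE 0.20, adjusted p = 0.000888), and the control changed by -1.25.

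In the WNT pathway 5 of 28 tested genes (43 listed) rose and 1 fell (17.9% and 3.57%, against 7.84% and 7.47% of all genes), with a median of 0.06 in the shOTX2 arrays and 0.03 in the control. Leaving out the block gave 2 higher and 1 lower, and leaving out course 1, 2 or 3 gave 1 and 1, 0 and 1, and 3 and 2. The fall was that of the receptor gene FZD5, which read 1346, 1527 and 1574 at 0 h and 892, 829 and 903 at 24 h, a log2 change of -0.75 (SE 0.09, adjusted p = 8.81e-06), with a control change of -0.46. None of the rises kept its call without course 2. Of 37 tested MAPK feedback and immediate early genes (43 listed) 4 rose and 3 fell, shares near those of all genes (10.8% and 8.11%, against 7.84% and 7.47% of all genes). With the block left out 1 higher and 2 lower were called, and without course 1, 2 or 3 in turn 6 and 2, 1 and 2, and 3 and 1. STC1 and CCN1, given above, were the largest in either direction, and the median differed in sign between the courses (-0.17, 0.27 and 0.24).

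Interferon-stimulated genes as a list were called about as often as all genes. Of 60 listed genes 32 were tested, and 3 rose and 2 fell (15.6% called, against 15.3% of all genes), with a median of -0.16 and -0.06 in the control. With no course block the counts were 2 higher and 1 lower, and with course 1, 2 or 3 left out 2 and 2, 1 and 2, and 2 and 1. The classical targets ISG15 and IFIT1 stayed under the filter, and MX1, OAS1 and RSAD2 did not pass it. On the 8 arrays used here ISG15 read 2 to 8.8 and IFIT1 1.4 to 17.4. IFI44L, an interferon-induced gene, read 1, 0.5 and 8.1 at 0 h and 15.3, 25.8 and 24.4 at 24 h, near background, and its rise of 0.99 (adjusted p = 0.00255) was lost without course 2 (adjusted p = 0.0879). IFIH1, the cytoplasmic sensor of double-stranded RNA also called MDA5, read 81.7, 84.9 and 115 at 0 h and 36.7, 30.6 and 52.2 at 24 h, a log2 change of -0.98 (SE 0.16, adjusted p = 0.000206). The control read 54.3 at 0 h and 70.4 at 24 h. UBE2L6, the conjugating enzyme for ISG15, changed by 0.39 (adjusted p = 0.0469). It was lost without course 1, 2 or 3 (adjusted p = 0.333, 0.0929 and 0.0614) and without the block (adjusted p = 0.196). GBP1, an interferon-induced GTPase, read 55.2, 67.3 and 173 at 0 h and 29.2, 46.1 and 33.9 at 24 h. Its fall of -0.9997 (adjusted p = 0.0176) was lost without the block (adjusted p = 0.0851). It was also lost without course 3 (adjusted p = 0.317), whose 0 h array was the highest.

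A pair of these promoters is shown because both hold GAAA 2 times with any 2 bases (NN) between, a core of the interferon response element, while the genes moved in opposite directions.

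IFI44L, chr1:78620198-78620447, plus strand: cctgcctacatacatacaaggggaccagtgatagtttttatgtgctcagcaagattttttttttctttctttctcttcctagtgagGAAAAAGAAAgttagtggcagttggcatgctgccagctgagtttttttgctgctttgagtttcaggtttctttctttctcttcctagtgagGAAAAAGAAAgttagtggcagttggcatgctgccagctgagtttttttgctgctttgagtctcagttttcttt

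IFIH1, chr2:162318685-162318934, minus strand: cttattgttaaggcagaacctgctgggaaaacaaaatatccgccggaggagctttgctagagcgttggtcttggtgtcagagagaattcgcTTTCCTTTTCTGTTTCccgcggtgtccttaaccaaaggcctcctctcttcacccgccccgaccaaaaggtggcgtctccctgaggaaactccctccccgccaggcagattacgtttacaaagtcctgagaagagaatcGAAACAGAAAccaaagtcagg

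In IFIH1 the first run of capitals marks the motif on the other strand, where 2 matches overlap. This spaced motif, searched on both strands in the same window, is in 2.14% of all promoters, in 9 of 23 (39.1%) of the interferon genes and in 3 of their 4 called members with a promoter in the table, the third being GBP1. It is in 2.03% of the promoters of genes that rose and 2.07% of those that fell.

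Stress pathways were examined in 4 lists. In the unfolded protein response 8 of 24 tested genes (25 listed) rose (33.3%, against 7.84%) and 1 fell, and the median of 0.17 was close to the control's 0.16, where 21 of 24 went up. Higher and lower counts were 2 higher and 0 lower with no block and 7 and 1, 3 and 0, and 6 and 1 with course 1, 2 or 3 left out. HERPUD1, a component of degradation at the endoplasmic reticulum, read 796, 876 and 1030.1 at 0 h and 1122, 1389.5 and 1508 at 24 h, a log2 change of 0.56 (SE 0.10, adjusted p = 0.000934), and the control read 1227 at 0 h and 1483 at 24 h. ERN1, the sensor IRE1, rose by 0.85 (adjusted p = 0.000522, or 0.0534 without the block). The fall was that of EIF2AK3, the sensor PERK, which read 630.5, 696 and 612 at 0 h and 418, 354 and 509.8 at 24 h, a log2 change of -0.59 (SE 0.17, adjusted p = 0.0213), and lost its call without the block (adjusted p = 0.092) and without course 2 (adjusted p = 0.155). Of 41 integrated stress response genes (44 listed) 3 rose and 2 fell (12.2% called, no more than the 15.3% of all genes), with a median of -0.02 and 0.18 in the control. The fit with no block gave 2 higher and 1 lower, and leaving out course 1, 2 or 3 gave 2 and 1, 2 and 1, and 2 and 5. DDIT4, an inhibitor of mTOR complex 1, read 90.3, 169 and 155 at 0 h and 283, 231 and 448 at 24 h. Its log2 change was 1.12 (SE 0.21, adjusted p = 0.000808), and its control went from 213 to 324. The amino acid transporter gene SLC38A2 read 1483, 1626 and 1751 at 0 h and 1924, 2310.5 and 2098 at 24 h, a log2 change of 0.38 (SE 0.06, adjusted p = 0.000169). The regulators were not called: ATF4 changed by 0.14 (adjusted p = 0.326) and DDIT3, which encodes CHOP, by 0.20 (adjusted p = 0.482).

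Of 34 mitochondrial translation and stress genes (35 listed) 4 fell and none rose (11.8% called, against 15.3% of all genes). Without a course block 1 were called lower, and leaving out course 1, 2 or 3 left 2, 1 and 3. GFM1, a mitochondrial elongation factor, read 688, 910.2 and 705 at 0 h and 395, 479 and 527 at 24 h, a log2 change of -0.70 (SE 0.11, adjusted p = 0.000115), although 1 of its 5 kept probe sets had a change of 0.08. Of 20 heat shock and chaperonin genes (27 listed) 3 fell and none rose (15% called, about the 15.3% of all genes). With no course block 0 were called lower, and with course 1, 2 or 3 left out 1, 1 and 2. HSF1, the heat shock transcription factor, changed by -0.93 (adjusted p = 0.00392, or 0.222 without the block and 0.0553 without course 3).

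Cholesterol genes had lower medians in both arms. Of 24 tested genes (30 listed) 8 fell (33.3%, against 7.47%) and none rose, with a median of -0.25 and -0.15 in the control. The fit with no block called 1 lower, and leaving out course 1, 2 or 3 left 5, 3 and 7. SC5D, a late enzyme of cholesterol synthesis, read 2258, 2050.1 and 1686 at 0 h and 1156, 1566 and 954 at 24 h, a log2 change of -0.72 (SE 0.13, adjusted p = 0.000566), and the control went from 1048 to 578. In hypoxia and glycolysis 7 of 37 tested genes (40 listed) rose and 5 fell (18.9% and 13.5%, against 7.84% and 7.47% of all genes). Leaving out the block gave 6 higher and 3 lower, and leaving out course 1, 2 or 3 gave 3 and 3, 4 and 1, and 6 and 5. NDRG1, a stress gene induced by hypoxia, read 682, 712 and 764 at 0 h and 1851, 1139 and 1379 at 24 h, a log2 change of 0.98 (SE 0.11, adjusted p = 4.91e-06). P4HA2, a collagen prolyl hydroxylase, read 327, 215 and 259.7 at 0 h and 574, 567 and 447 at 24 h, a log2 change of 0.96 (SE 0.15, adjusted p = 0.000127), with a control at 172 at 0 h and 173 at 24 h. PFKP, the platelet phosphofructokinase, read 932, 907 and 548 at 0 h and 485, 402 and 409 at 24 h, a log2 change of -0.82 (SE 0.14, adjusted p = 0.000451). Of 25 p53 targets (29 listed) 4 rose and 2 fell (16% and 8%, against 7.84% and 7.47% of all genes). With the block left out 1 higher and 1 lower were called, and without course 1, 2 or 3 in turn 2 and 2, 2 and 1, and 3 and 1. TIGAR, a fructose bisphosphatase, read 1128, 1112 and 1144 at 0 h and 539.5, 669.6 and 689 at 24 h, a log2 change of -0.83 (SE 0.08, adjusted p = 8.55e-07).

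Matrix genes moved in both directions. Of 44 tested genes (51 listed) 7 rose and 11 fell (15.9% and 25%, against 7.84% and 7.47% of all genes), and the median was -0.08, with -0.01 in the control. With no course block the counts were 3 higher and 10 lower, and with course 1, 2 or 3 left out 3 and 9, 3 and 7, and 6 and 9. Besides ADAMTS1 and TIMP3, the cysteine protease gene CTSV read 2393, 2136 and 1681 at 0 h and 678, 1153 and 787 at 24 h, a log2 change of -1.25 (SE 0.17, adjusted p = 4.96e-05), and its control went from 1309 to 872. SPARC, a collagen-binding matricellular protein, read 50, 42 and 65.3 at 0 h and 188, 110.2 and 130.5 at 24 h, a log2 change of 1.20 (SE 0.16, adjusted p = 3.30e-05). The SPARC control read 144 at 0 h and 199.9 at 24 h, above most of the shOTX2 arrays at either time. SPON1, an axon guidance protein of the floor plate, read 256, 198 and 304 at 0 h and 473, 422 and 390.5 at 24 h, a log2 change of 0.74 (SE 0.14, adjusted p = 0.000984). Of 28 ion channel and transporter genes (50 listed) 2 rose and 6 fell (7.14% and 21.4%, against 7.84% and 7.47% of all genes), with SLCO4A1 and TRPM3 in the lead. Higher and lower counts were 1 higher and 2 lower with no block and 1 and 4, 1 and 2, and 2 and 4 with course 1, 2 or 3 left out. SCN1A, a neuronal sodium channel, read 7.4, 6.9 and 14.2 at 0 h and 43.9, 49.2 and 31.2 at 24 h, a log2 change of 1.17 (SE 0.20, adjusted p = 0.000424). Of 37 axon guidance genes (53 listed) 4 rose and 2 fell (16.2% called, near the 15.3% of all genes). The fit with no block gave 2 higher and 0 lower, and leaving out course 1, 2 or 3 gave 2 and 0, 2 and 0, and 4 and 2.

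**Figure D5:**
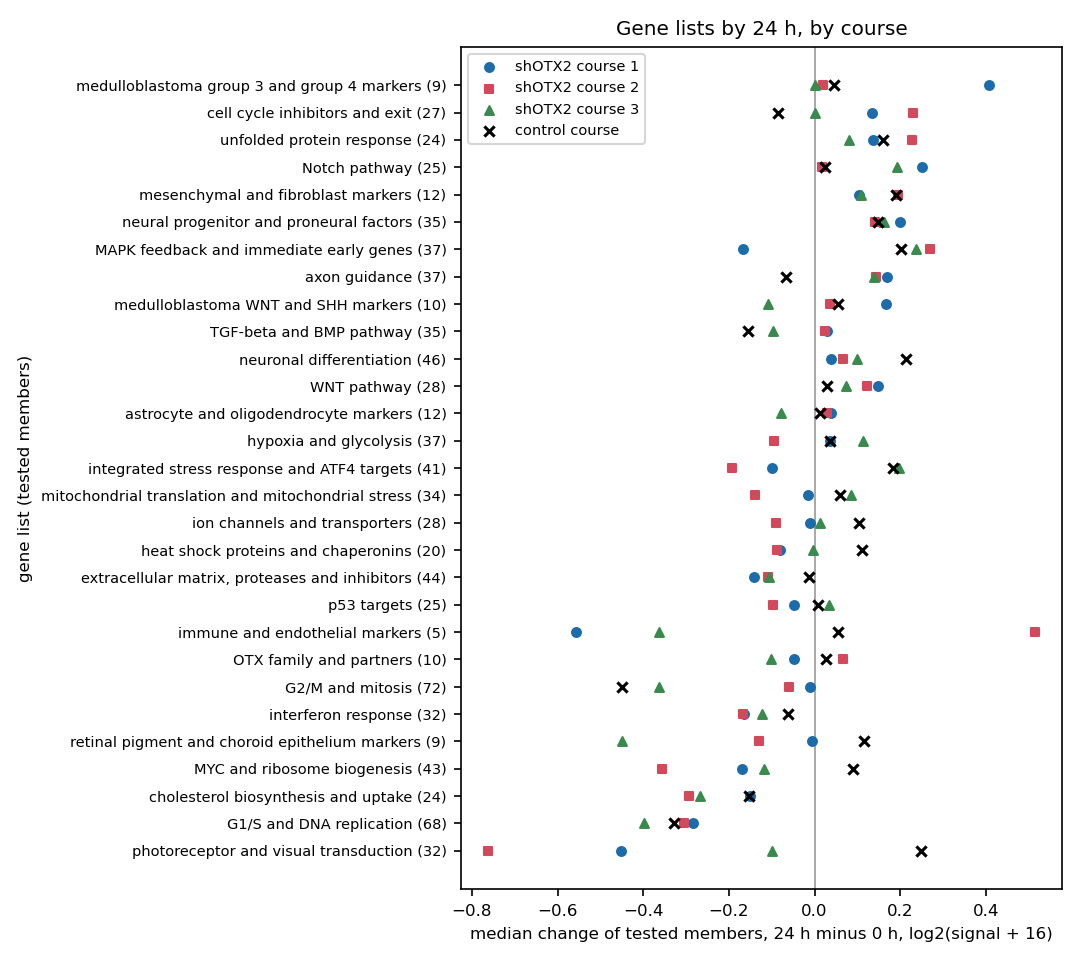
The median change from 0 h to 24 h in log2(signal + 16) over the tested members of each of 29 gene lists is plotted, with circles, squares and triangles for shOTX2 courses 1, 2 and 3, crosses for the control course (1 array per time) and the number of tested members in brackets. The photoreceptor list is lowest on average, with -0.45, -0.76 and -0.10 in the courses and 0.25 in the control.

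Subgroup and other cell type markers were read beside these lists. PALMD and MAB21L2, markers of group 3 and group 4 medulloblastoma, were the 2 called of 9 tested (22.2%, against 15.3% of all genes). PALMD read 519, 595 and 602 at 0 h and 900.4, 883 and 1002 at 24 h, a log2 change of 0.68 (SE 0.09, adjusted p = 4.70e-05). MAB21L2 changed by 0.33 (adjusted p = 0.00446), and lost its call without the block (adjusted p = 0.215) and without course 2 (adjusted p = 0.0874). Of 10 tested markers of the WNT and SHH subgroups (15 listed) 2 were called (20%): PDLIM3 changed by -0.79 (adjusted p = 0.00338, or 0.0793 without course 2) and BOC by 0.56 (adjusted p = 0.0493, or 0.137 without the block, 0.275 without course 1 and 0.371 without course 2). In the astrocyte and oligodendrocyte list CSPG4 rose and SLC1A3 fell among 12 tested of 17 (16.7% called, near the 15.3% of all genes), and the summed signal was 991 to 1254 at 0 h and 811 to 1007 at 24 h. GFAP, AQP4, S100B and SOX10 stayed at or below 12.3 on the 8 arrays used here, the only ones that the later limits of this kind cover. Of the retinal pigment and choroid list 1 of 9 tested (15 listed) was called (11.1%): AQP1, a water channel, read 757, 407 and 225 at 0 h and 109.9, 182 and 129 at 24 h, a log2 change of -1.48 (SE 0.24, adjusted p = 0.000285). The AQP1 control read 92.3 at 0 h and 79.4 at 24 h, below every shOTX2 array at either time. That list summed to 1772 to 1875 at 0 h and 1218 to 1927 at 24 h, and TTR, PMEL and TYRP1 stayed at or below 13.5. Among 12 mesenchymal markers (16 listed) S100A4 and COL1A1 rose and TWIST1 fell (25% called, against 15.3%), with a sum of 3472 to 4387 at 0 h and 3469 to 4560.4 at 24 h, and FAP, LUM and POSTN at or below 14.7. Each astrocyte, oligodendrocyte and mesenchymal call was lost without at least 1 course. CSPG4 was lost without any 1 course (lowest adjusted p = 0.114), and SLC1A3 and COL1A1 without course 2 (adjusted p = 0.103 and 0.15). S100A4 was lost without course 1 or 2 (adjusted p = 0.0503 and 0.0769) and TWIST1 without course 1 or 3 (adjusted p = 0.209 and 0.172). Without the block COL1A1 and TWIST1 lost their calls (adjusted p = 0.0641 and 0.0816). Of the immune and endothelial list 5 of 15 were tested and 1 was called (20%), their sum was 234 to 429 at 0 h and 189.7 to 263 at 24 h, and PTPRC, CD14, CDH5 and VWF stayed at or below 17.3. The vascular endothelial growth factor receptor gene FLT1 was the 1 member called (-0.60, adjusted p = 0.0148, or 0.278 without the block and 0.166 without course 3). It changed by -0.62 in the control. The part of other cell types in the changes was not tested.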

How the data were processed

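RNA of D425 cells was measured on 24 arrays, and this text uses the 3 shOTX2 arrays at 0 h, the 3 at 24 h and the control arrays at both times, with the other arrays for the spread and for values at other times. The deposited intensity is a linear MAS5 signal that the authors made with MAS5 and GCOS, per the submitters' processing notes, and the versions are not given in the sources used here. Each array had been scaled to a mean of 100 after trimming 2% at each end, which hides any shift common to most genes. Of 54675 probe sets, 42898 are in the platform annotation and 41097 have 1 symbol, 1801 several and 11777 none here. Symbols were updated through Entrez IDs with RefSeq (GRCh38.p14). The 62 control probe sets were left out. A probe set was kept when above the array median in at least 3 of the 24 arrays (33803 were), and the brightest kept one stood for its gene, which gave 13903 genes, 7014 with several.

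Signals were taken as log2(signal + 16), which understates the change of dim genes. limma 3.58.1 in R 4.3.3 was fitted to the 12 group means of all arrays with the course as a block (10 residual degrees of freedom), with eBayes and a mean-variance trend, and p-values were adjusted by Benjamini-Hochberg over all genes. The control has 1 array per time and is assumed to vary like the shOTX2 arrays. The fit was tried on simulated arrays with independent noise, which cannot show whether the cultures measured here were separate. The course number pairs the arrays because the labels describe separate experiments. Deviations from the group means correlated in all 45 same-numbered pairs (lowest r across genes 0.157, median 0.243). The median of -0.28 for other pairs follows from this, because the 3 deviations at each time sum to 0, and is no separate evidence. Between 0 h and 24 h r was 0.504, 0.158 and 0.203 in courses 1, 2 and 3. Nothing states that cultures were separate beyond this, so p-values may measure technical spread in part. No pair of the 8 arrays had more than 1.11% equal values.

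The comparisons were 24 h against 0 h and the same change minus that of the control. The rule names OTX2, the 15 largest rises and falls called with the same sign in 3 courses, up to 3 called rises and falls per list, a fixed set of genes whatever their call, and up to 5 each way with the largest difference between the arms. Genes named only with a promoter were picked among called list members holding the motif, after their values were seen, as were FEN1, ABCA4, DLL3, BAMBI and other called list members named outside the rule. The 29 lists hold 1069 genes, of which 1006 have a named probe set and 842 were tested. The members and lists were chosen with earlier results of these data known, so counts are descriptions. The list members that passed the filter on low signal are those counted. NEUROD1 was not analysed here.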

Additional observations from a re-analysis of the deposited data

Results flagged for a closer look

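In 15 named genes the change from 0 h to 24 h differed between the shOTX2 arrays and the control course by limma, with adjusted p from 0.0138 to 0.0488. Each such difference is the shOTX2 change minus the control change on the log2 scale. It was 2.99 for USP18, 2.21 for TNNC1, 2.16 for STC1, 2.13 for GRK5, 1.90 for DLC1, 1.70 for INHBE and 1.65 for GADD45G. It was -1.17 for CCND3, -1.43 for TRPM3, -1.61 for GNGT2, -1.83 for RFK, -1.89 for ARSI, -2.12 for LRTM1, -2.19 for GULP1 and -2.34 for HKDC1. The control has 1 array per time, and all 15 calls were lost without the course block, without course 1, without course 2, with the mean of a gene's probe sets and without the variance trend.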

How the results depend on the processing

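The 24 h counts, 2129 genes with the course block, fell to 855 without the replicate block and ran from 896 to 1823 with 1 course left out. They stayed within 1.5 times under the other alternatives, from 1584 with the 6 arrays alone to 2336 with a filter at a signal of 50. The count for the difference between the arms, 84 genes, was 0 with no replicate block, 0 with the mean of a gene's probe sets, 0 without the variance trend, 34 with no filter, 127 with a constant of 64, 141 with a filter at 50 and 0 to 360 with 1 course left out. At an unadjusted p under 0.05 it was 1863 in the fit reported. The cause was not tested. Over 14 alternatives no named gene changed direction where it was called. Of 2065 values of named genes, 249 lost their call and 5 gained one, and 72 of 136 called named genes kept their call in every alternative, the 30 largest changes among them. Of 180 values of the difference between the arms 97 lost their call. List medians moved beyond the spread of the courses in 49 of 406 cases. Signals near background limit what can be seen of dim genes.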
